A study of Mus musculus with 22 samples.

Results

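The noncanonical PRC1.1 complex genes were taken as 10 mouse genes, Bcor, Bcorl1, Pcgf1, Kdm2b, Ring1, Rnf2, Rybp, Yaf2, Usp7 and Skp1a, of 21853 protein-coding genes of the annotation. Their H3K27ac peaks were those that overlapped the gene body or lay within 10 kb of it in GRCm38, with peaks at transcription start sites (TSSs) kept apart from intragenic peaks and Bcor used as the reference. The peaks of all 10 members together numbered 173 over the 3 libraries analysed, flanking peaks near the TSS of another gene included. The libraries were chromatin immunoprecipitation sequencing (ChIP-seq) of histone H3 acetylated at lysine 27 in KL cells, the lineage-negative, cKit-positive, Sca1-negative progenitors of bone marrow, and each holds the peaks that its authors called in that library alone. The cells came from male C57BL/6 mice of genotype scl-Cre-ERT +; Bcorfl/y, 20 weeks after tamoxifen at 1 mg per day for 5 days, which was started at an age of 3 to 6 months. This gives the BcorΔE9-10 genotype, in which Cre recombinase has cut exons 9 and 10 out of Bcor, a gene of the X chromosome, and which the study describes as coding for a truncated protein without the domain that binds PRC1. Cre was expressed under a stem cell enhancer of the Scl gene, so recombination was driven in stem cells, upstream of KL cells. The other 19 of 22 samples, BcorWT cells among them, were not analysed here, so no comparison of genotypes was made and the 3 libraries, called replicates 1, 2 and 3, form 1 group.

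PRC1.1 is a Polycomb complex that adds a single ubiquitin to histone H2A (H2AK119ub) and so helps to keep genes silent. Its KDM2B subunit binds unmethylated CpG dinucleotides, which brings the complex to CpG islands, while BCOR or its relative BCORL1 joins KDM2B to PCGF1 and the RING1A or RING1B ligase. H3K27ac, by contrast, marks active promoters and enhancers. The question put to the peak lists was where acetylation lies at the complex's own genes in cells that carry the Bcor deletion.

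Depth recovered from the lists was 18.0 to 19.3 M reads per library, and the lists held 23410 to 25963 peaks, none with fewer than 8 fragments at its summit. Fold enrichment is the peak caller's ratio of the fragments at a summit to the local background of that library, with 1 added to both. It was not scaled between libraries, and replicate 3 ran highest, with a median of 5.53 against 4.92 and 4.72 in replicates 1 and 2. All 8 progenitor genes used as a check of the labels (Kit, Gata2, Myb, Runx1, Spi1, Cebpa, Mpo and Cd34) had a TSS peak in all 3 libraries, and none of 4 non-haematopoietic genes (Alb, Ins2, Myh6 and Neurod1) had one in any. Among genes of cells that the gate removes, Ly6a, Itgam and Ly6g had no TSS peak in any library. Cd5 had one in all 3, at 5.01 ± 0.901 (SD, n = 3). The means of the 8 progenitor genes ran from 5.02 ± 1.32 at Cd34 to 9.77 ± 0.162 at Kit, so height did not separate Cd34 from Cd5. The part of other cells in the members' peaks was not tested, and the share of cells that carry a mark cannot be told apart from its level per cell.

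Most PRC1.1 genes carried acetylation at their start sites, but not all of them. A TSS peak, one that overlaps 2.5 kb either side of the TSS of a protein-coding transcript, was present in all 3 libraries at 8 of the 10 members, where 43.3% of all protein-coding genes had one. The exceptions were Bcorl1, with a TSS peak in replicates 2 and 3, and Pcgf1, with none. The members' median fold enrichment at the TSS was 11.9, 11.7 and 16.7 in replicates 1, 2 and 3, a mean of 13.4 ± 2.79 (SD, n = 3). It was taken over 8, 9 and 9 members, because Bcorl1 entered only in replicates 2 and 3. The 9471 genes with a TSS peak in all 3 libraries, a fixed set, had medians of 9.38, 9.80 and 11.4. Of the members, 7 stood above the median of the 9471 genes in every library (Bcor, Bcorl1 and Pcgf1 did not, except that Bcor reached percentile 53.0 in replicate 1). Yaf2, one of the 7, was at the cut-off in replicate 1, at percentile 50.5. The share of all genes above the median in every library was not counted, so the 7 have no scale.

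**Figure D1:**
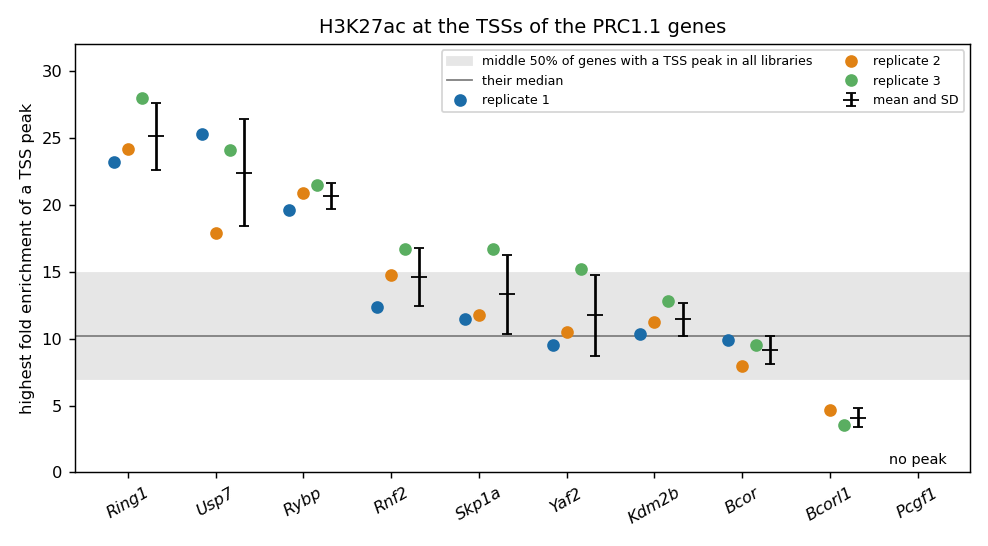
Each point is the highest fold enrichment of a TSS peak (vertical axis, ratio to local background) of a member in 1 library, with the mean and SD over libraries in black. Ring1, Usp7 and Rybp lie above the grey band of the middle 50% of genes (7.01 to 14.9), Bcor lies between 7.94 and 9.90, Bcorl1 has 2 points below the band and Pcgf1 has none.

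In order of the mean, the members ran from Ring1 through Usp7, Rybp, Rnf2, Skp1a, Yaf2, Kdm2b and Bcor to Bcorl1. Only some steps in this order were larger than the spread between libraries. All values of Rybp lay above all of Rnf2, all of Kdm2b above all of Bcor, and all of Bcor above both of Bcorl1. Ring1 and Usp7 differed by 2.71 ± 4.29 (SD of the within-library difference, n = 3), Usp7 and Rybp by 1.74 ± 4.40, Rnf2 and Skp1a by 1.27 ± 1.56, and Yaf2 and Kdm2b by 0.294 ± 1.85, so their order was not separated. Skp1a and Yaf2 overlapped in range, although Skp1a was the higher in 3 of 3 libraries.

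Bcor encodes the scaffold subunit that is truncated in these cells. The gene lies on chrX:12036740-12160355 on the minus strand and is 123.6 kb long. It has protein-coding TSSs at 3 sites, the 5′ end, a position within the gene at 12128350 and 12128400, and a further one at 12080553. At the last of these starts exon 1 of transcript Bcor-202, whose exon 2 lies at 12061522-12061646. The highest TSS fold enrichment of Bcor was 9.90, 7.94 and 9.52 in replicates 1, 2 and 3, a mean of 9.12 ± 1.04 (SD, n = 3). That mean lay at percentile 41.9 of the 9471 genes, while a TSS peak in all 3 libraries was found at 23.9% of the 948 genes of chromosome X, of which a male cell has 1 copy.

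No single start site of Bcor stood out. Within 1 kb of each, peaks reached 7.68 ± 1.96 at the 5′ end, 6.48 ± 1.41 at the middle pair and 8.34 ± 1.53 at the internal site (SD, n = 3). The highest of the 3 was the 5′ end in replicate 1, the middle pair in replicate 2 and the internal site in replicate 3, so the sites had no common order. What set Bcor apart from most members was length. Its TSS peaks added up to 8.30, 5.36 and 6.68 kb, at percentile 99.9 or above in each library, with Kdm2b next at 5.08 kb ± 0.564 and the other members with a TSS peak in all 3 libraries between 1.36 and 2.18 kb. The sum runs over the windows of all start sites of a gene, and it was not adjusted for their number. Bcor has 3 sites and Kdm2b several, where Ring1, Rybp and Yaf2 have 1.

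**Figure D2:**
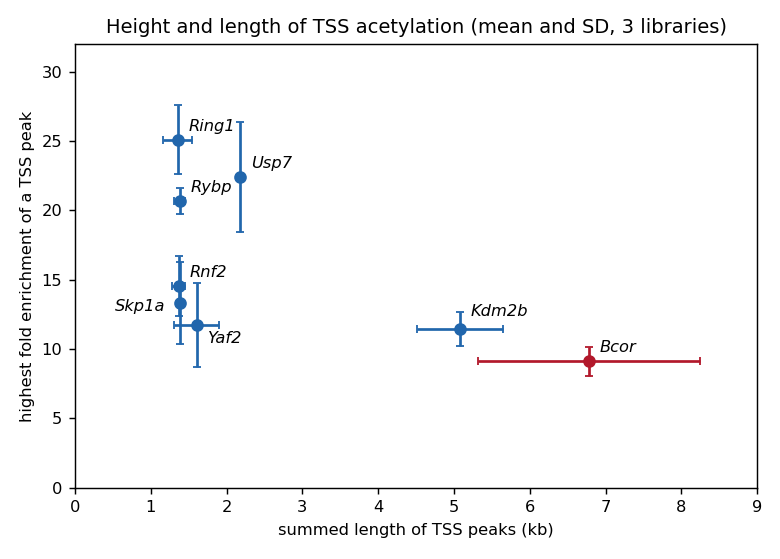
The mean highest fold enrichment of TSS peaks (vertical axis) is plotted against their mean summed length (horizontal axis, kb) for the 8 members with a TSS peak in all 3 libraries, with SD bars. Bcor (red) has the lowest height, 9.12, and the greatest length, 6.78 kb, while Ring1 has the greatest height, 25.1, at 1.36 kb.

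Acetylation ran on into the introns of Bcor. Intragenic peaks, those in the gene body that are no TSS peak of the gene, numbered 14, 14 and 15, which put Bcor above 99.7% to 99.8% of all genes in each library and at percentile 98.5 of the 2484 genes of 100 kb or longer. In all, 24 ± 1.73 peaks covered 11.1% ± 1.39 of the gene body (SD, n = 3). When overlapping peaks of the libraries were merged, the 17 intragenic regions comprised 7 present in all 3 libraries, with mean fold enrichments of 4.64 to 11.9. None lay within 2.5 kb of a TSS of another gene, and each was placed in an intron.

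The strongest of these regions, chrX:12086908-12088929, was higher than any TSS peak of the gene. It read 11.9, 13.6 and 10.1 in replicates 1, 2 and 3, against 9.90, 7.94 and 9.52 at the TSSs. The summit in replicate 2 lay 6.7 kb before the internal TSS. Counting error alone is wide at this depth, with a 95% interval of 9.78 to 18.3 for the intragenic summit in replicate 2 and 5.15 to 11.7 for the TSS summit. The intervals of the pair overlapped in each library. An intragenic peak above the TSS peaks in all 3 libraries was found at 6.14% of the 1221 genes with both classes. Of Bcor, Kdm2b and Usp7, the members with both classes in all 3 libraries, only Bcor showed it.

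The sequence under this region is shown because it is rich in CpG although no annotated start site lies there. It is given with the RefSeq promoter of the 5′ end (GRCm38.p6, 250 bases before to 50 after the start) and, for contrast, with the strongest intragenic summit of Kdm2b. Capitals mark CpG dinucleotides, the letters that KDM2B recognises when they are unmethylated.
Bcor intron, chrX:12087129-12087328, plus strand: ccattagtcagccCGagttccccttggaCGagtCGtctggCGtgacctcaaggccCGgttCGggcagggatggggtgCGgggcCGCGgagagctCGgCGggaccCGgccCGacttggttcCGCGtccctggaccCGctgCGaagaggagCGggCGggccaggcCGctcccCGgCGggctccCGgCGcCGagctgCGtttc
Bcor promoter at the 5′ end, chrX:12160297-12160596, minus strand: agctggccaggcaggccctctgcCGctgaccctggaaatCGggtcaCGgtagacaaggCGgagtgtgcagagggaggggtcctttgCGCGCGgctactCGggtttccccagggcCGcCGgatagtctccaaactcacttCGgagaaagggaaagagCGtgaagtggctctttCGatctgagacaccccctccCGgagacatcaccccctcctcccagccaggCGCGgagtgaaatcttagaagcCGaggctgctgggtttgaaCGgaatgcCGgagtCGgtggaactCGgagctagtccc
Kdm2b intron, chr5:122895220-122895419, plus strand: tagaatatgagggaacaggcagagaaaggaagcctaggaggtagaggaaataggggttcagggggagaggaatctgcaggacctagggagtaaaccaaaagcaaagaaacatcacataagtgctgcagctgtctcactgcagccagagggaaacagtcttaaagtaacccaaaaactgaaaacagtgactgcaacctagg
The Bcor intron window held 26 CpG in 200 bases, at 0.954 of the number that its C and G content would give. The Bcor promoter held 21 CpG in 300 bases at an observed over expected ratio of 0.723, and the Kdm2b intron window held 0. In windows of 200 bases, as for the intron, the TSS summits of Bcor lay on both sides of it. In replicate 1 the summit at the 5′ end held 19 CpG at 0.852, and that at the internal TSS held 30 at 1.08.

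Most intragenic peaks of Bcor were rich in CpG as well. Over the 200 bases centred on each summit, the median CpG number of the intragenic peaks of Bcor was 14.5, 12 and 14 in replicates 1, 2 and 3. Its own TSS peaks had higher medians of 16, 18 and 15. Intragenic peaks of the other members had medians of 2, 2 and 4. At least 10 CpG were found at 10 of 14, 8 of 14 and 10 of 15 intragenic peaks of Bcor. The same was so at 0 of 7, 0 of 16 and 0 of 11 intragenic peaks of the other members. Of the TSS peaks of Bcor, 6 of 8, 9 of 11 and 8 of 10 had at least 10. Among all peaks of the lists that lie further than 2.5 kb from any protein-coding TSS, 6.44%, 5.65% and 7.26% had as many, with a median of 3 in each library. These peaks share a gene, and the libraries share the regions, so no test was made over peaks.

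**Figure D3:**
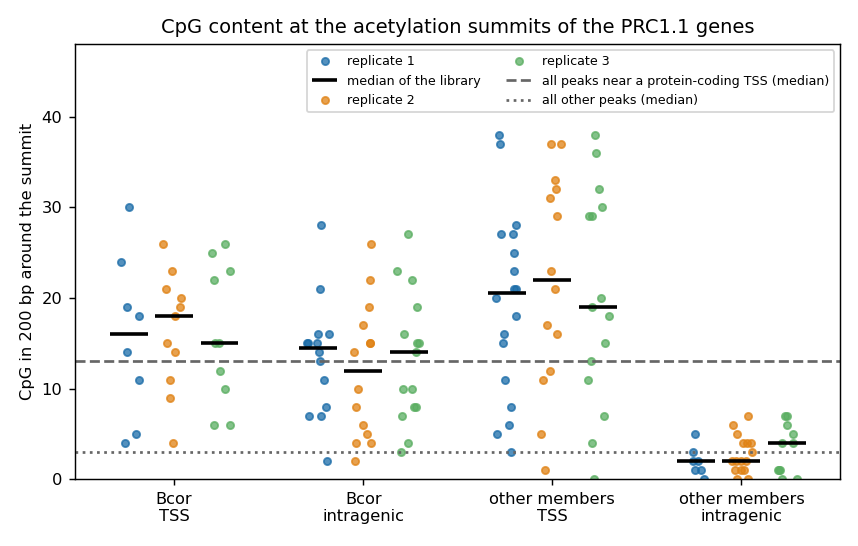
CpG dinucleotides in the 200 bases around each peak summit (vertical axis) are plotted for TSS and intragenic peaks of Bcor and of the other members, 1 point per peak, by library, with the library median as a black bar. Intragenic peaks of Bcor lie around the dashed median of all peaks near a TSS (13 or 14), and those of the other members reach at most 7, around the dotted median of all remaining peaks (3).

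Downstream of the internal TSS the peaks ended. The last peak lay at chrX:12076601-12077638, and none was listed over the rest of the gene. Exon 2 was already 15.2, 15.5 and 15.0 kb from the nearest peak in replicates 1, 2 and 3. Exon 9 was 29.1, 29.4 and 28.9 kb from the nearest peak in replicates 1, 2 and 3, and exon 10 was also without a peak. The deleted exons are therefore not sampled by these lists, and the lists do not check the deletion.

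**Figure D4:**
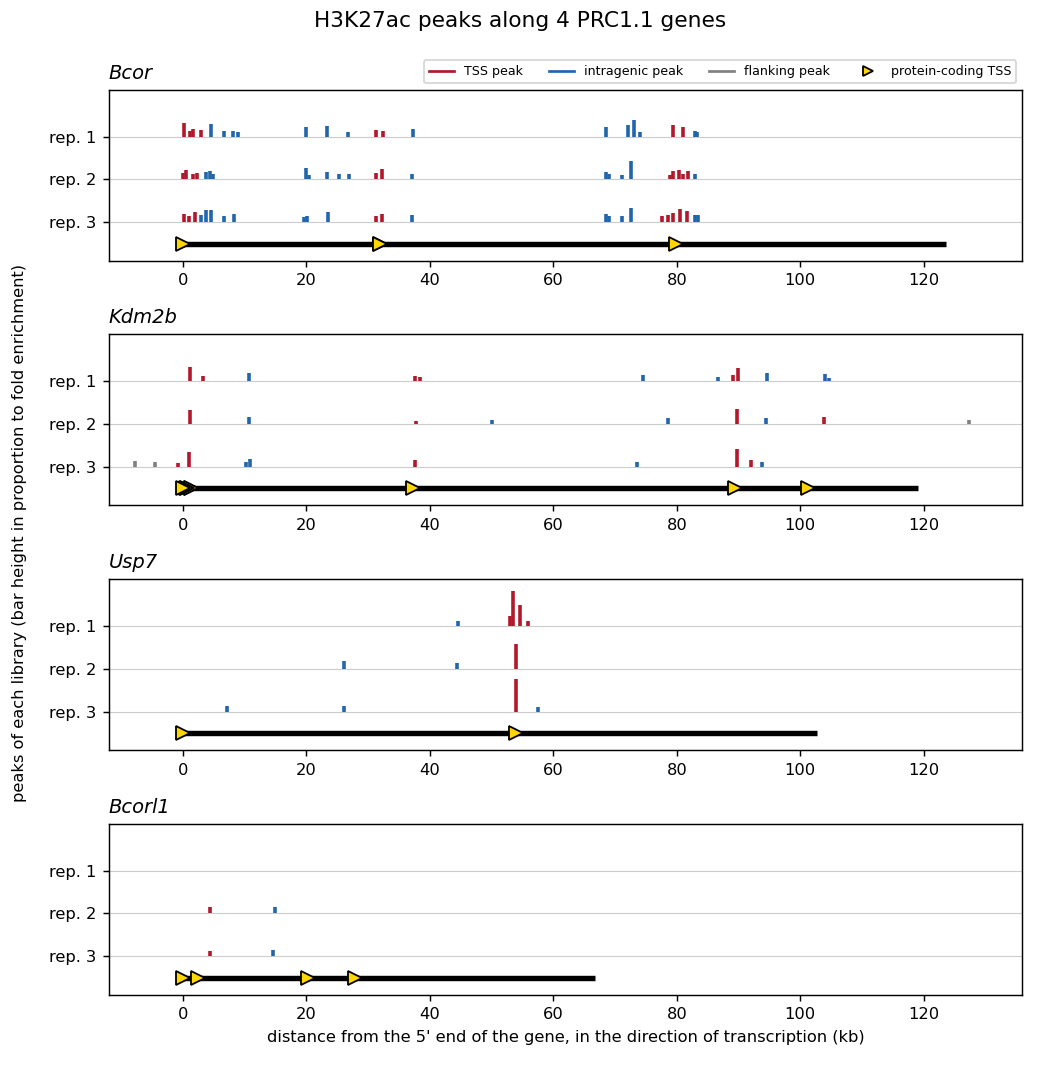
Peaks of Bcor, Kdm2b, Usp7 and Bcorl1 are drawn as bars at their distance from the 5′ end of the gene (horizontal axis, kb), 1 row per library, with bar height in proportion to fold enrichment (the tallest is Usp7 in replicate 1, 25.3). Red bars are TSS peaks, blue intragenic and grey flanking peaks, the black line is the gene body and arrowheads are protein-coding TSSs. Bcor has clusters of bars at all 3 of its start sites and between them, Usp7 has its tall bars at the internal start site and none at the 5′ end, and Bcorl1 has none in replicate 1.

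Bcorl1, the relative of Bcor that can take its place in the complex, showed little acetylation. The gene lies on chrX:48341358-48408049 on the plus strand. No peak was listed in the gene or within 10 kb of it in replicate 1. In replicates 2 and 3 a TSS peak read 4.63 and 3.58, with its summit 1931 and 1901 bases downstream of the TSS at 48343770, and 1 intragenic peak read 4.63 and 4.23. No peak lay within 1 kb of any of its 4 TSSs. Bcor read 1.71 and 2.66 times Bcorl1 in the libraries where both had a value. The values in replicates 2 and 3 rested on 13 and 10 fragments at the summit, near the minimum of the lists, so a weaker peak in replicate 1 was not detectable at this depth.

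The Bcorl1 promoter is shown because it is rich in CpG and yet no library had a peak over it.
Bcorl1 promoter, chrX:48341108-48341407, plus strand: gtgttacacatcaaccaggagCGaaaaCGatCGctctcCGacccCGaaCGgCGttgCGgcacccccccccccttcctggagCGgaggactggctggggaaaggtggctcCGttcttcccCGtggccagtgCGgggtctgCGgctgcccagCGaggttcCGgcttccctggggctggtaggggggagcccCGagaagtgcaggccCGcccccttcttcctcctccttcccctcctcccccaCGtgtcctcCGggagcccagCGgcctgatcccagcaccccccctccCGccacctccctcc
It held 21 CpG, as many as the Bcor promoter, but at an observed over expected ratio of 0.588, percentile 63.4 of the 32817 promoters in the RefSeq table, whose median was 7 CpG.

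Pcgf1 encodes the PCGF subunit that defines the complex and pairs with BCOR. Its 2.99 kb body on chr6:83077869-83080855 and the 10 kb on either side held no peak in any library, as was so for 41.6% of all genes. The nearest peak lay 20.5, 20.7 and 20.7 kb away, near the TSS of Ccdc142, where it read 6.54, 11.8 and 10.6. The stretch without a peak was 46.0, 46.1 and 46.1 kb long and held the start sites of Dqx1, Tlx2 and Lbx2 besides that of Pcgf1. Of all genes, 36.7% had no peak within 20 kb in any library. An absent peak means fewer fragments than the peak caller's threshold and not the absence of the mark.

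Kdm2b encodes the CpG-binding demethylase subunit that recruits the complex. On chr5:122870665-122989823, minus strand, its highest TSS fold enrichment was 10.3, 11.2 and 12.8, a mean of 11.5 ± 1.23 (SD, n = 3). Acetylation was split between a pair of promoters of nearly equal height. The group of starts at the 5′ end, region chr5:122987526-122990072, read 10.3, 10.0 and 11.0, and the internal start at 122900355, region chr5:122899222-122900974, read 9.83, 11.2 and 12.8. The 5′ region was the higher in replicate 1 and the internal region in replicates 2 and 3. The 5′ region also overlaps A930024E05Rik, an antisense gene, so its signal cannot be given to Kdm2b alone.

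A further start of Kdm2b at 122952506 read only 3.70 ± 1.08 (SD, n = 3), and that at 122888580 had no peak within 1 kb. Intragenic peaks numbered 6, 4 and 4, with 1 region in all 3 libraries, chr5:122978807-122979374, at 5.54 ± 0.502. The internal promoter is shown because it is among the CpG-richest of the complex.
Kdm2b internal promoter, chr5:122900301-122900600, minus strand: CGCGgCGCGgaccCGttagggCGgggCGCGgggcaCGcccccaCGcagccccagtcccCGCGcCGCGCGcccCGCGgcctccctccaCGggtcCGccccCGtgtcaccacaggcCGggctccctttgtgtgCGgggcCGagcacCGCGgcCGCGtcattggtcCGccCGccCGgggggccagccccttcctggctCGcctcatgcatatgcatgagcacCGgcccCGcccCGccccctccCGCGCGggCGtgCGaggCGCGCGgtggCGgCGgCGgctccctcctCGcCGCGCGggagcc
It held 49 CpG at an observed over expected ratio of 0.996 (percentile 93.8 of promoters). The RefSeq promoters of the 5′ group held 18 and 28 CpG.

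The catalytic subunits came next. Ring1 (RING1A) and Rnf2 (RING1B) encode the alternative ubiquitin ligases of all PRC1 complexes. Ring1, on chr17:34020792-34024680, minus strand, had the highest TSS fold enrichment of the members by mean. It read 23.2, 24.1 and 28.0, a mean of 25.1 ± 2.51 (SD, n = 3) at percentile 96.2. Usp7 was the higher in replicate 1, at 25.3. The Ring1 promoter is shown as that of the member with the highest mean height.
Ring1 promoter, chr17:34024631-34024930, minus strand: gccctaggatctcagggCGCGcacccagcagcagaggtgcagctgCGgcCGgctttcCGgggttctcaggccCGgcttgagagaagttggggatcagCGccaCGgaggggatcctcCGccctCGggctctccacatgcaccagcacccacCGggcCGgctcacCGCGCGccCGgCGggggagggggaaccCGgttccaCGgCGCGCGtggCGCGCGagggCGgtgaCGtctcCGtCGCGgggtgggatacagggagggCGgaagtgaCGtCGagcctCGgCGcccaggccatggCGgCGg
It held 37 CpG at an observed over expected ratio of 0.910.

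Ring1 sits in a crowded locus. Its TSS peak was within 2.5 kb of the TSS of H2-Ke6. The region of that peak also overlaps the noncoding genes Gm26940, Mir219a-1 and Mir219c, so its signal cannot be given to Ring1 alone. The peaks of the Ring1 flank in all 3 libraries lay near H2-Ke6, Rxrb and Slc39a7. The strongest of these, near Rxrb and Slc39a7, read 18.2, 17.1 and 21.3. Ring1 had no intragenic peak in its 3.9 kb body.

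Rnf2, on chr1:151458004-151500955, minus strand, read 12.3, 14.7 and 16.7 at its TSS, a mean of 14.6 ± 2.17 (SD, n = 3). Within each library Ring1 read 1.88, 1.64 and 1.68 times Rnf2, so all 3 libraries gave the same order. The exact sign-flip permutation test over 3 libraries, two-sided, gave p = 0.25 (adjusted p = 0.25 over 2 pairs), which is the smallest it can give. The Rnf2 promoter held 30 CpG. Its 3 intragenic peaks were in replicate 2 only, at 2.98 to 4.41.

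Rybp and Yaf2 encode related subunits that bind the RING ligase and ubiquitinated H2A. Rybp, on chr6:100228565-100287485, minus strand, read 19.6, 20.9 and 21.5 at its TSS, the narrowest spread of the members with 3 values, with a mean of 20.7 ± 0.945 (SD, n = 3). Its acetylation was in 2 peaks around the start in every library, the main one with its summit 254 to 277 bases downstream and a smaller one upstream at 7.10 ± 1.47. It had no intragenic or flanking peak.

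Yaf2, on chr15:93284278-93336935, minus strand, read 9.51, 10.5 and 15.2, a mean of 11.7 ± 3.03 (SD, n = 3). Rybp read 2.06, 1.98 and 1.41 times Yaf2, again the same order in 3 of 3 libraries with p = 0.25 by the same exact test (adjusted p = 0.25). With fold enrichment times length summed over TSS peaks, Rybp read 1.30 times Yaf2 and the order was no longer common to all 3 libraries (p = 0.5 by the same exact test). Intragenic peaks of Yaf2 numbered 0, 6 and 3, so replicate 1 differed from the others. Of 7 merged regions, 0 were in all 3 libraries. Peaks in its flank in all 3 libraries lay near the TSS of Gxylt1, the neighbouring gene.

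The sequences at the TSS summits of this pair are shown because Yaf2, with the lower fold enrichment, had the higher number of CpG.
Rybp TSS summit, chr6:100287121-100287320, plus strand: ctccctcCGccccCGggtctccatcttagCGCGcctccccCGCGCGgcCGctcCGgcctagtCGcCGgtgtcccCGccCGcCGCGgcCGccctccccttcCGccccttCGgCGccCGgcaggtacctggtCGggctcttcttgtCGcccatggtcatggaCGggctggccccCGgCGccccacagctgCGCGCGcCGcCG
Yaf2 TSS summit, chr15:93336618-93336817, plus strand: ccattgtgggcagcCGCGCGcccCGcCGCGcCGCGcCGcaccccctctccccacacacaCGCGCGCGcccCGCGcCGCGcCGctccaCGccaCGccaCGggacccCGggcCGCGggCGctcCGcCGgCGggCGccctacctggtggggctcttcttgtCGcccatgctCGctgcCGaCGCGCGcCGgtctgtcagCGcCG
The Rybp window held 30 CpG in 200 bases and the Yaf2 window 38. At the strongest TSS summit of each library, Rybp had 27, 29 and 30 CpG and Yaf2 had 37, 37 and 38.

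Usp7 encodes a deubiquitinase that is found with the complex. On chr16:8689595-8792308, minus strand, it read 25.3, 17.9 and 24.1, a mean of 22.4 ± 3.97 (SD, n = 3) at percentile 93.3. Replicate 2 was the low one. All of this signal was at an internal TSS at 8738342, in region chr16:8737146-8739432. The start at the 5′ end of the annotated gene, 8792308, had no peak within 1 kb, and its nearest peak was 36.8, 26.0 and 7.07 kb away. RefSeq places its promoter at the internal start, and it is shown because it was the CpG-richest of the 11 promoters of members.
Usp7 promoter, chr16:8738293-8738592, minus strand: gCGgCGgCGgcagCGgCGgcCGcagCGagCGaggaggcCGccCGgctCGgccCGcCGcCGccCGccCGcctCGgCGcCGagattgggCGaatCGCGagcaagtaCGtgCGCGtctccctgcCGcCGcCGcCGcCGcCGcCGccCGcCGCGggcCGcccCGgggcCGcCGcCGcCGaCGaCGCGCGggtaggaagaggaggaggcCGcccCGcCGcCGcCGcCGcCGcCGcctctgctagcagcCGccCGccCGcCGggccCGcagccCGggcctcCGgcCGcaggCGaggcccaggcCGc
It held 63 CpG at an observed over expected ratio of 1.14 (percentile 98.9 of promoters), and the summits lay 459, 467 and 437 bases upstream of the start. Intragenic peaks of Usp7 were few and low, 1, 2 and 3 in the libraries, and no merged region was in all 3.

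Skp1a encodes an adaptor of cullin ligases that binds KDM2B through its F-box. On chr11:52231995-52246858, plus strand, it read 11.5, 11.7 and 16.7, a mean of 13.3 ± 2.95 (SD, n = 3), in a single region in all 3 libraries with no intragenic or flanking peak. The region also overlaps Gm26551, a long noncoding RNA gene, so its signal cannot be given to Skp1a alone. The local background there was 3.46, 2.08 and 1.98 times the level of the genome, the highest among the strongest TSS summits of the members in each library. Because fold enrichment divides by it, the 87, 60 and 84 fragments at the Skp1a summits, more than at those of Usp7 (73, 53 and 73), gave a lower value. The Skp1a promoter (Skp1 in RefSeq) held 34 CpG.

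Set against Bcor within each library, 6 members had a higher TSS fold enrichment in all 3 libraries, where 44.2% of the other genes with a TSS peak in all 3 did. Ring1 read 2.76 times Bcor (geometric mean of 3 libraries), Usp7 2.44, Rybp 2.27, Rnf2 1.59, Skp1a 1.44 and Kdm2b 1.26 times. Each was above 1 in 3 of 3 libraries, and the exact sign-flip permutation test, two-sided, gave p = 0.25 for each (adjusted p = 0.292 over 7 members), so none could pass a threshold in this design. Kdm2b exceeded Bcor by the least, at 1.04 in replicate 1. Yaf2 read 1.27 times Bcor but was below it in replicate 1, at 0.960 (p = 0.5 by the same exact test).

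The comparison turned on whether height or total signal was taken. With fold enrichment times length summed over TSS peaks, 0 members exceeded Bcor in all 3 libraries. Ring1 then read 0.712, Rybp 0.551, Skp1a 0.429, Yaf2 0.425 and Rnf2 0.394 times Bcor, while Usp7, at 0.955, and Kdm2b, at 1.08, were near it. Bcor and Kdm2b have several separate start sites, and their sums run over more windows.

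At least 1 intragenic peak in each of the 3 libraries was found at 3 of 10 members, Bcor, Kdm2b and Usp7, against 6.79% of all genes. The peaks need not lie at the same place, and Usp7 had no intragenic region in all 3 libraries. At a −log10 q of at least 5, the count was 2 members. Bcor, Kdm2b and Usp7 are also the members longer than 100 kb, and the share among genes of that length was not counted. Flanking peaks that did not lie near the TSS of another gene were found in all 3 libraries at 0 of 10, against 3.93% of all genes. Of the merged regions of the members, 17 of 28 TSS regions were in all 3 libraries, but 8 of 43 intragenic regions, 7 of them in Bcor.

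The position of the strongest TSS summit varied among members. It lay downstream of the closest start in all 3 libraries at 5 members, of the 8 with a TSS peak in all 3, where 65.7% of such genes had it downstream. Usp7 had it upstream in every library, and Ring1 and Skp1a differed between libraries.

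Super-enhancers were called by joining neighbouring peaks and ranking the joined regions by summed fold enrichment times length. Called in at least 2 libraries, they were assigned to 4 of 10 members (Bcor, Kdm2b, Ring1 and Usp7, each in 3 of 3). All 4 are among the 8 members with a TSS peak in all 3 libraries, and 18.7% of all genes with such a peak had a super-enhancer. Bcor ranked 144, 247 and 305 of 11779, 12327 and 11525 regions. The joined region ran over chrX:12123046-12160845 in replicate 1, about the same stretch in replicate 3, and chrX:12077160-12092129 in replicate 2, so the 5′ part led in 2 libraries and the internal TSS in the other. Ring1 ranked 135, 98 and 106 in a region it shares with its neighbours. Usp7 ranked 630, 322 and 320, and Kdm2b ranked 1030, 1014 and 994. The threshold kept 1383, 1083 and 1190 regions (11.7%, 8.79% and 10.3%), so Kdm2b was the closest of the 4 to it. This is a loose call on peaks, and it does not stand for the calls of the study, which ranked tag counts. When TSS peaks were left out before joining, only Bcor was called. Joining peaks within 5 or 20 kb, below and above the distance used, gave 6 and 3 members.

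A list of 18 other genes of PRC1 complexes and of partners of BCOR was set beside the members. TSS peaks in all 3 libraries were found at 13 of them, in 2 libraries at Cbx7, and in none at Cbx2, Cbx6, Auts2 and Mllt3. Over those 13, the median of the gene means was 10.9. The 13.4 of the members was a mean of library medians that took in Bcorl1 in replicates 2 and 3, so these summaries are not alike. The highest of the list by mean was Bcl6, a transcriptional repressor that recruits BCOR and is not a PRC1 subunit, at 27.6 ± 3.91 (SD, n = 3). The lowest of those with a TSS peak in all 3 libraries was Pcgf2, a paralogue of Pcgf1, at 4.23 ± 1.05. Unlike Pcgf1, each of Bmi1, Pcgf2, Pcgf3, Pcgf5 and Pcgf6 had a TSS peak in all 3 libraries. Pcgf5 read 27.1 ± 0.166 and Bmi1 12.3 ± 5.11.

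RefSeq promoters matched 7 of the 10 members, and Pcgf1, Rybp and Yaf2 had no entry. Short motifs were searched on both strands of the 300 bases. The GC box GGGCGG was found in promoters of Bcorl1, Kdm2b, Ring1, Rnf2 and Usp7, and in 35.6% of all promoters in the table. CCAAT was found in the internal promoters of Kdm2b and Usp7 and in 37.4% of all, TATAAA in that of Skp1a and in 13.6% of all, and the ETS core CCGGAAG in none of the members and in 8.86% of all. These are matches of letters and not shown sites.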

How the data were processed

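Per the methods, the authors mapped reads to GRCm38 (bowtie2), discarded duplicates and ran MACS2 2.1.1 on each library. The deposited lists give each summit a fold enrichment (a ratio to local background), a −log10 p-value, a −log10 q-value and a score, which is a rounded −log10 q set by the authors and was not used. The control and the settings of the caller were not given in the sources used here. Rows that share an interval were counted as 1 peak at its highest fold enrichment. Fragments at each summit, and from them depth, were solved from the fold enrichment and p-value of that row, taking fragments of 200 bp. Counting intervals (95%, exact Poisson) cover counting error only. Overlaps counted from 1 bp, coordinates count from 1, and gene models were GENCODE M21. Promoters came from RefSeq (GRCm38.p6).

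Cells came from 3 mice per the methods of the study. The labels number 3 replicates without naming the mouse, so the spread between these samples may be technical. Ratios were formed within a library and tested by an exact sign-flip permutation test (smallest p 0.25) with Benjamini-Hochberg adjustment. That test gives 0.25 whenever all 3 ratios lie on the same side of 1, whatever their spread, so its p-values do not measure the spread. Members, gene lists, motifs and comparisons, including that of CpG content, were chosen with earlier results of these data known. All 10 members are described. Of the list of genes of cells that the gate removes, 1 is not reported here. Of the other PRC1 genes the highest, the lowest, those without a TSS peak and the PCGF genes are named, the last after their values were seen. Scripts were tested on simulated data with Python 3.11.15, numpy 2.4.6, pandas 2.3.3 and scipy 1.17.1.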

Additional observations from a re-analysis of the deposited data

How the results depend on the processing

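No paired analysis was possible because there is no second group of samples whose replicate numbers could be matched, and ratios between genes were formed within each library throughout. The number of members with a TSS peak in all 3 libraries, their median fold enrichment and the number of paralogue pairs with a common order kept within 1.5 times, or 1 SD, of the values above under every alternative run for them: TSS windows of 1 and 5 kb, all annotated transcripts, the first TSS alone, a −log10 q of at least 5, placing peaks by their summit, leaving out TSS peaks near another gene, and leaving out each library. Fold enrichment times length, run for the pairs, lowered the number with a common order from 3 to 2, with Rybp and Yaf2 lost. The 3 pairs include Bcor and Bcorl1, although Bcorl1 had no TSS peak in replicate 1, so a missing peak was counted as the lower value. With the window of 1 kb Bcorl1 had no TSS peak in any library and the count was still 3. For that pair the count therefore does not test the order. Other results moved. With fold enrichment times length, 0 members exceeded Bcor in all 3 libraries and the mean log2 ratio to Bcor turned to -0.49 for Ring1, -1.34 for Rnf2, -0.86 for Rybp, -1.23 for Yaf2, -0.0664 for Usp7 and -1.22 for Skp1a. The intragenic peaks of Bcor numbered 17.7 per library with the window of 1 kb, 9.33 with 5 kb, 7.67 at a −log10 q of at least 5 and 20.3 with the first TSS alone, an alternative added after seeing the data. Members with a flanking peak in all libraries numbered 1 with a flank of 25 kb and 2 when peaks near another gene were included, also added later. Leaving out each library gave 3 to 5 members with an intragenic peak (5 without replicate 1) and 0 to 2 with a flanking peak (2 without replicate 1). Super-enhancers in at least 2 libraries were at 2 members with summed fold enrichment as the signal, and at 1, Bcor, without TSS peaks. The construction of each alternative (windows, thresholds, signal) sets these counts, and nothing further was tested. Depth limits the lists to summits of at least 8 or 9 fragments, and a peak that is absent from a list is not an absent mark.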
